A study of Mus musculus with 6 samples.

Results

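The 10 genes described here encode the subunits of the hypoxia-inducible factors (HIF) and the proteins that pass the oxygen level on to them: the alpha subunits Hif1a, Epas1 and Hif3a, the beta subunits Arnt and Arnt2, the prolyl hydroxylases Egln1, Egln2 and Egln3, the asparaginyl hydroxylase Hif1an, and Vhl. They were taken by symbol from the probe sets that carry exactly 1 gene symbol in the array annotation. All 10 were found, on 11 of 23521 such probe sets (10 of 22180 genes), because Hif1a has 2.

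RNA came from cells of mouse gliomas, sorted with magnetic beads and an antibody against CD105 (endoglin) and exposed for 12 h to glioma-conditioned medium; the labels call them tumor-associated endothelial cells. Cells of 3 mice were Tie2-Cre,Pfn1fl/fl:Y129F (mice 1, 3 and 4, the Tie2-Cre group) and cells of 3 mice were Pfn1fl/fl:Y129F (mice 6, 7 and 10, the no Cre group), so that the floxed Pfn1 alleles and the Y129F form were common to both groups and Cre was the labelled difference. Ages, strain background and what Cre does to these alleles are not given in the sources used here. Tie2-Cre drives recombination in endothelial cells and also in many blood cells. The study's title asks what phosphorylation of the actin-binding protein profilin-1 (Pfn1) does to gene expression. Each mouse gave 1 array.

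HIF is a pair of an alpha and a beta subunit that binds DNA and turns on genes for glycolysis, blood vessel growth and survival without oxygen. With oxygen, the EGLN enzymes hydroxylate prolines of the alpha subunit, the VHL ubiquitin ligase then binds it, and it is degraded, while HIF1AN blocks its contact with coactivators. Oxygen thus acts mainly on the amount of alpha protein, which arrays do not measure. Hif1a is found in most cell types, and Epas1, the gene of HIF-2 alpha, was named for its expression in endothelium.

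Values are log2 intensities, and a change is the log2 difference, Tie2-Cre minus no Cre, with its standard error (SE) from limma; a call needs a Benjamini-Hochberg adjusted p under 0.05 over all 23521 probe sets. Median log2 values of the arrays lay between 6.64 and 6.69. Pfn1 itself stood at 12.41 ± 0.0045 (SD, n = 3) with Tie2-Cre and 12.37 ± 0.026 (SD, n = 3) without Cre, a change of 0.04 (SE 0.062) that did not pass (limma adjusted p 0.78). Whether the probe set separates the Y129F form from the unchanged gene was not tested. The 12 listed markers of endothelium had mean levels of 4.27 to 7.31 (Pecam1 6.23, Cdh5 6.89, Tek 5.79). Their median level of 6.20 lay under the array medians. Median levels of the other listed markers were 6.28 (astrocyte, progenitor and glioma), 6.68 (macrophage and microglia), 7.12 (mesothelial), 9.09 (pericyte and smooth muscle) and 10.30 (fibroblast). Probe sets differ in brightness, so these values give no level of 1 gene relative to another and do not settle the identity of the cells. Between the groups, 0 of the 12 passed the threshold of limma (1 at an unadjusted p under 0.05, Cdh5, lower). The sorting antigen Eng was itself lower with Tie2-Cre, at 11.76 ± 0.034 against 12.05 ± 0.036 (SD, n = 3 each), a difference of -0.30 (SE 0.065, limma adjusted p 0.023). Xist, which silences 1 X chromosome in female cells, read 5.36 to 6.06 in the Tie2-Cre mice but 11.16 to 11.44 in the no Cre mice, and the Y-linked Uty, Eif2s3y and Kdm5d were higher with Tie2-Cre, so Cre and the sex of the cells cannot be told apart in anything that follows.

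Of the 11 probe sets, 1 was higher with Tie2-Cre (Epas1), 2 were lower (Egln1 and the dimmer probe set of Hif1a) and 8 did not pass the threshold. Of all 23521 probe sets, 11.8% passed in either direction, 4.8% higher and 7.05% lower. The 3 arrays of each group did not overlap in 8 of the 11, with 2 higher and 6 lower, against 30.9% of all probe sets (13.6% higher and 17.3% lower). The median change over the 11 was -0.19, and over all probe sets it was -0.0048. The median absolute change was 0.24 against 0.11. With 11 probe sets these shares are descriptions, and calls in both directions stood side by side in the group.

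**Figure D1:**
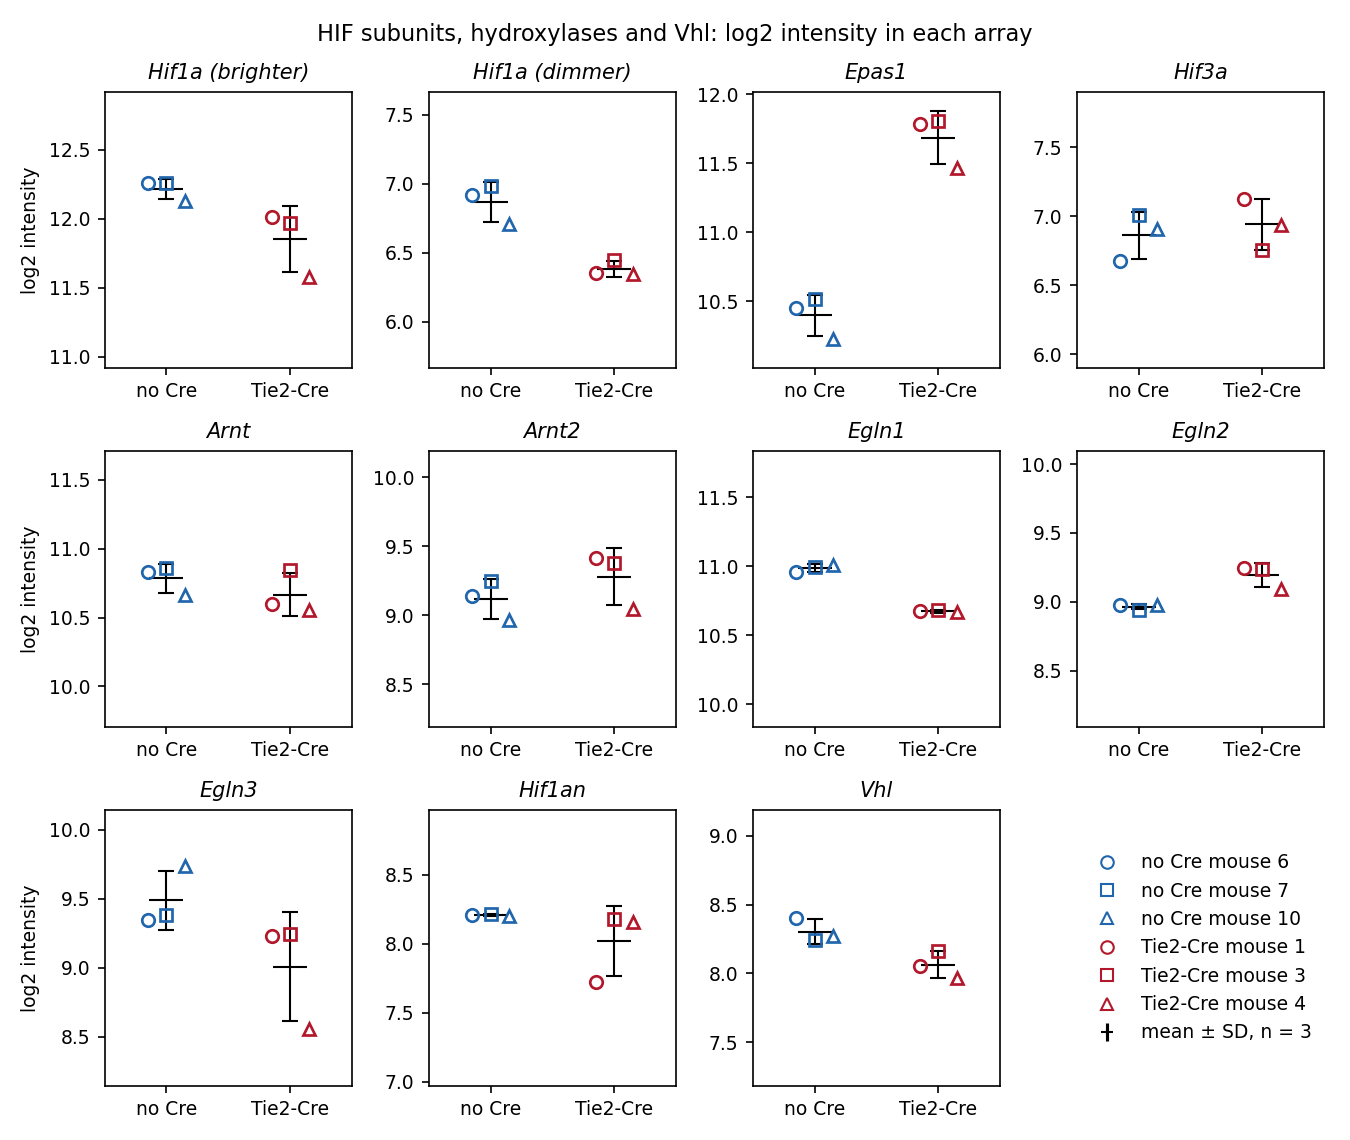
Log2 intensity of each of the 11 probe sets in the 6 arrays, 1 panel per probe set, with the no Cre mice in blue, the Tie2-Cre mice in red and the mean ± SD (n = 3) in black; each vertical axis spans 2 log2 units around its own midpoint. Epas1 shows the widest gap, Egln1 a small gap between tight groups, and Tie2-Cre mouse 4 lies below mice 1 and 3 in 9 of the 11 panels, only just so for Egln1 and the dimmer Hif1a probe set.

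Among the alpha subunits, Epas1 rose and Hif1a was at lower values, while Hif3a overlapped between the groups. Epas1 read 11.79, 11.81 and 11.47 in Tie2-Cre mice 1, 3 and 4, and 10.45, 10.51 and 10.23 in no Cre mice 6, 7 and 10. Every Tie2-Cre array lay above every no Cre array, with a gap wider than the range of either group. The change was 1.29 (SE 0.12, 95% confidence interval 1.02 to 1.56, adjusted p 0.00045), which is 2.44-fold. Of the 1128 probe sets that were higher with Tie2-Cre, 72 had a larger change. Leaving out each mouse in turn gave changes from 1.21 to 1.40, past the threshold each time.

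Hif1a, the gene of HIF-1 alpha, was the only symbol of 2 probe sets in the annotation. The brighter one read 12.01, 11.97 and 11.58 in Tie2-Cre mice 1, 3 and 4, and 12.26, 12.26 and 12.13 in no Cre mice 6, 7 and 10. The groups did not overlap, but mouse 4 lay well below the other two Tie2-Cre mice. Its change of -0.36 (SE 0.12, 95% confidence interval -0.64 to -0.09) did not pass the threshold (adjusted p 0.096), and without Tie2-Cre mouse 4 it was -0.23. The dimmer one read 6.35, 6.45 and 6.35 with Tie2-Cre and 6.92, 6.98 and 6.71 without Cre, in the same order of mice. This probe set was close to the array medians and its groups did not overlap either. Its change was -0.49 (SE 0.088, adjusted p 0.010), and the call was kept without each mouse in turn (adjusted p at most 0.043). With the mean of both probe sets, each given equal weight, Hif1a changed by -0.43 (SE 0.093) and passed (adjusted p 0.023). A call on the gene thus depended on including the dimmer probe set, whose signal over background is unknown. On which strand and part of the locus this probe set lies was not checked, so it may not read the Hif1a transcript. The brighter probe set alone passed under none of the alternatives.

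Hif3a, whose products include forms that hold the other alpha subunits back, read 7.13, 6.76 and 6.94 with Tie2-Cre and 6.68, 7.01 and 6.90 without Cre. The groups overlapped, near the array medians. The change was 0.08 (SE 0.12, 95% confidence interval -0.20 to 0.35, adjusted p 0.755), and it was -0.015 without Tie2-Cre mouse 1 or without no Cre mouse 6. The deposited table has no detection calls, and whether Hif3a lay above background was not tested.

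Within the arrays, the difference between the alpha subunits of HIF-2 and HIF-1 shifted between the groups. Epas1 minus the brighter Hif1a probe set was -0.23, -0.16 and -0.11 in Tie2-Cre mice 1, 3 and 4, and -1.81, -1.74 and -1.90 in no Cre mice 6, 7 and 10. The group means were -0.17 ± 0.057 and -1.82 ± 0.079 (SD, n = 3 each), so this difference varied less among the mice of a group than Epas1 alone did with Tie2-Cre (SD 0.19). It was 1.65 higher with Tie2-Cre (exact permutation test, two-sided, p = 0.1, the smallest that 3 against 3 can give). Epas1 was higher and the brighter Hif1a probe set lower in every Tie2-Cre array, so this p was fixed in advance. The test therefore adds nothing to the values themselves. The sign and size of each group mean reflect the brightness of 2 different probe sets, and only the shift between the groups can be read as unequal change. Mouse 4 was lowest of its group in both genes but stood with mice 1 and 3 in their difference.

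**Figure D2:**
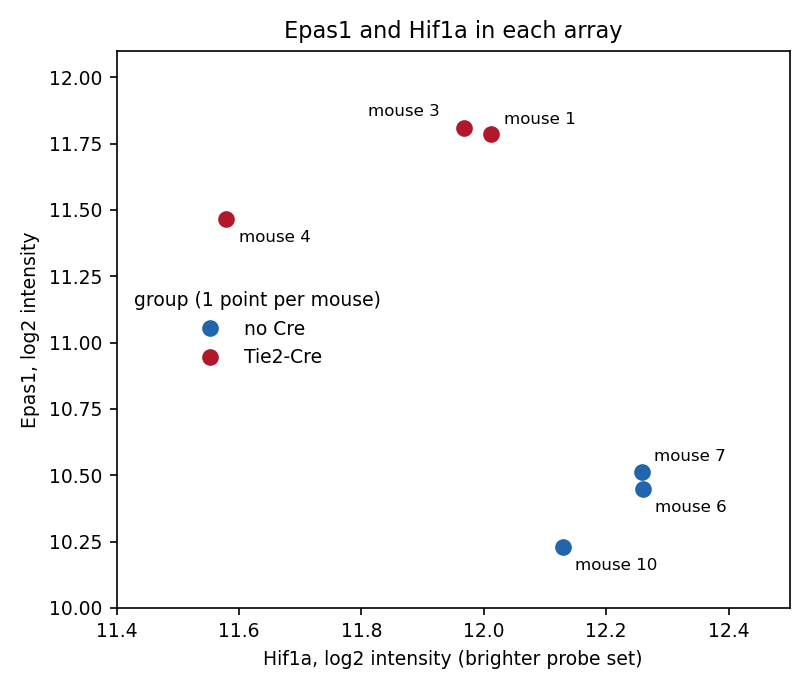
Log2 intensity of Epas1 (vertical axis) against that of the brighter Hif1a probe set (horizontal axis), 1 point per mouse, Tie2-Cre in red and no Cre in blue. The Tie2-Cre points lie at 11.47 to 11.81 for Epas1 and 11.58 to 12.01 for Hif1a, and the no Cre points at 10.23 to 10.51 and 12.13 to 12.26.

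Neither beta subunit passed the threshold. Arnt, the general partner of the alpha subunits, read 10.60, 10.84 and 10.56 with Tie2-Cre and 10.83, 10.86 and 10.67 without Cre. The groups overlapped, and the change of -0.12 (SE 0.098) had a 95% confidence interval from -0.35 to 0.11 (adjusted p 0.52). Arnt2, its relative best known from neurons, read 9.42, 9.38 and 9.04 with Tie2-Cre and 9.14, 9.25 and 8.97 without Cre. Here too the groups overlapped, because Tie2-Cre mouse 4 lay among the no Cre mice, and the change was 0.16 (SE 0.12, 95% confidence interval -0.11 to 0.44, adjusted p 0.47).

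Of the prolyl hydroxylases, Egln1 fell and the other two did not pass. Egln1 encodes PHD2, regarded as the main oxygen sensor for HIF-1 alpha. It read 10.67, 10.69 and 10.67 in Tie2-Cre mice 1, 3 and 4, and 10.958, 10.998 and 11.008 in no Cre mice 6, 7 and 10. Both groups were tight and apart from each other. Its change was -0.31 (SE 0.062, 95% confidence interval -0.46 to -0.17, adjusted p 0.016), with the no Cre level 1.24-fold that with Tie2-Cre. Leaving out each mouse kept the change between -0.33 and -0.30, and the change no longer passed once no Cre mouse 7 or 10 was left out (adjusted p 0.0596 and 0.0598).

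Egln2, the gene of PHD1, read 9.25, 9.24 and 9.09 with Tie2-Cre and 8.98, 8.94 and 8.98 without Cre. It lay above the no Cre group in all 3 Tie2-Cre mice, opposite in sign to Egln1. The change of 0.23 (SE 0.071, 95% confidence interval 0.06 to 0.39) did not pass (adjusted p 0.083). It passed when the dimmest probe sets were left out (adjusted p 0.040) and by eBayes with trend and robust (adjusted p 0.036).

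Egln3, the gene of PHD3 and itself a well known HIF target, read 9.23, 9.24 and 8.55 with Tie2-Cre and 9.34, 9.38 and 9.74 without Cre. The groups did not overlap, but mouse 4 on one side and mouse 10 on the other stood apart from their groups, and mice 1 and 3 lay just under mice 6 and 7. The change was -0.48 (SE 0.19, 95% confidence interval -0.93 to -0.03, adjusted p 0.17), the widest interval of the 11. Without no Cre mouse 10 it was -0.36 and without Tie2-Cre mouse 4 it was -0.25.

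Hif1an encodes the asparaginyl hydroxylase called FIH. It read 7.73, 8.18 and 8.16 with Tie2-Cre and 8.21, 8.22 and 8.20 without Cre. Mice 3 and 4 lay just under the no Cre mice and mouse 1 further down, and the change of -0.19 (SE 0.12, adjusted p 0.40) was -0.04 without mouse 1. Vhl, the part of the ubiquitin ligase that recognises hydroxylated alpha subunits, read 8.06, 8.16 and 7.97 with Tie2-Cre and 8.40, 8.24 and 8.27 without Cre. The groups did not overlap, and the change was -0.24 (SE 0.081, 95% confidence interval -0.43 to -0.05, adjusted p 0.10).

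**Figure D3:**
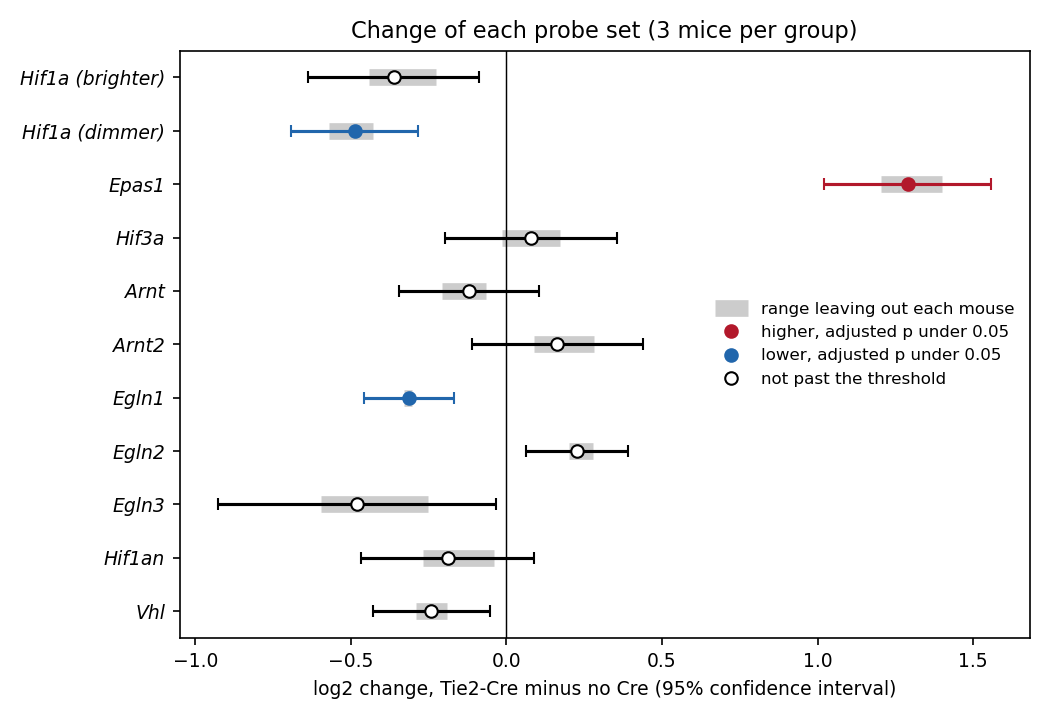
Log2 change of each of the 11 probe sets, Tie2-Cre minus no Cre, with its 95% confidence interval from limma; filled red and blue points passed the threshold higher and lower, open points did not, and grey bars span the changes with each mouse left out. Epas1 stands alone at 1.29, Egln1 has the narrowest interval and Egln3 the widest.

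Among the Tie2-Cre mice, mouse 4 was the lowest in 9 of the 11 probe sets and the highest in 0, while over all 23521 probe sets it was the lowest in 31.6%. The 2 exceptions were Hif3a and Hif1an. Mouse 4 lay only just under mouse 1 in the dimmer Hif1a probe set (6.348 against 6.350) and in Egln1 (10.666 against 10.673). Both Hif1a probe sets are in the count. In the no Cre group, mouse 10 was the lowest in 6, mouse 6 in 3 and mouse 7 in 2. The median SD over the 11 was 0.19 with Tie2-Cre and 0.11 without Cre, against 0.10 and 0.090 over all probe sets.

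HIF binds DNA at a short core, ACGTG or GCGTG, and several genes of the oxygen-sensing loop are themselves HIF targets, so the bases before the start sites of the members were searched for this core on both strands. RefSeq promoters (GRCm38.p6) were matched for 9 of the 10 genes, all but Epas1. Over the 250 bases before the start, 6 of the 9 held the core (Hif1a, Hif3a, Arnt, Egln1, Egln2 and Egln3) and Vhl, Arnt2 and Hif1an did not; 41.5% of all genes with a promoter sequence held it, and 38.6% of all promoters. The stretches of Hif1a and Egln1 are printed, with matches in capitals, because these genes had the calls below 0 (Hif1a by its dimmer probe set only). In Hif1a (chr12:73907617-73907866, + strand) the first match begins at -135 from the start and reads CACGTG, which matches on both strands and is also the general E-box of this class of factors, and the second begins at -70. In Egln1 (chr8:124949255-124949504, - strand) matches begin at -126 and -68. A match gives letters only and says nothing about whether HIF binds there in these cells.
Hif1a: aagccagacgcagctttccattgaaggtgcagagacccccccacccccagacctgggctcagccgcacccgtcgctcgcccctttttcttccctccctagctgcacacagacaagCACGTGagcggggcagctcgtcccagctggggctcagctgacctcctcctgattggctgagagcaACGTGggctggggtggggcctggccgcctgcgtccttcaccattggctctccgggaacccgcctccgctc
Egln1: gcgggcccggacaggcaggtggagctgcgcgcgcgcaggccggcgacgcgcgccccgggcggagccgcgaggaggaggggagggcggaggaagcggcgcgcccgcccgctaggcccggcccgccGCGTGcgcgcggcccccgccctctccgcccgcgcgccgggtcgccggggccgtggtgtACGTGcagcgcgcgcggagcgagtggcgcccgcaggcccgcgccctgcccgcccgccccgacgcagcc

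The genes most like Epas1 over the 6 arrays, by the root mean square difference of log2 values each centred on its own mean, were Dclk1 (0.036), Nid2 (0.045) and Cp (0.073). Dclk1, a kinase that binds microtubules, read 10.89, 10.94 and 10.57 with Tie2-Cre and 9.47, 9.60 and 9.32 without Cre. It shared with Epas1 the lower value of mouse 4 in one group and of mouse 10 in the other. Nid2, a basement membrane protein, changed by 1.32 (SE 0.10) and Cp, the copper-carrying ferroxidase ceruloplasmin, by 1.21 (SE 0.13). With 6 arrays in 2 groups this likeness is mostly the shared size of the group difference.

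Genes of proteins that act on HIF were mostly not past the threshold, as were most of all genes. With 21 genes measured, counts near the shares of all genes say little about the partners. Of 24 listed partners and modifiers 21 were measured, 0 were higher (limma; 2 at an unadjusted p under 0.05), 2 lower and 19 not past, with a median change of 0.05; of the 22180 genes, each read by its brightest probe set, 4.72% were higher and 7.1% lower. Eloc, the elongin C subunit of the VHL ligase, changed by -0.31 (SE 0.083, adjusted p 0.047), from 10.41, 10.46 and 10.25 in no Cre mice 6, 7 and 10 to 10.11, 10.10 and 9.96 in Tie2-Cre mice 1, 3 and 4. This call was lost when any mouse other than no Cre mouse 10 was left out (adjusted p up to 0.15). The other lower one was Mcm7 (-0.82, SE 0.067, adjusted p 0.00028), a replication helicase subunit that has also been linked to HIF degradation. The ligase subunits Elob (-0.23, adjusted p 0.083) and Cul2 (-0.01), the coactivators Ep300 (0.13) and Crebbp (0.09), and Cited2 (0.06), which competes with HIF for them, did not pass. Rbx1, Rack1 and Hsp90ab1 were not analysed here.

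Among 11 relatives of the HIF subunits in the bHLH-PAS family, 1 was higher, 1 lower and 9 not past, with a median change of -0.02. Of all genes 4.72% were higher and 7.1% lower, so with 11 genes these counts say little about the family. Npas4, an activity-induced factor of neurons, read 7.66, 7.58 and 7.67 with Tie2-Cre and 6.66, 6.95 and 6.94 without Cre. It rose by 0.79 (SE 0.094, adjusted p 0.0015). Ahrr, the repressor of the aryl hydrocarbon receptor, which like the HIF alpha subunits pairs with ARNT, changed by -0.86 (SE 0.087, adjusted p 0.00078). The receptor gene Ahr was at 0.37 (SE 0.11, adjusted p 0.081), and the clock genes Clock (-0.02) and Arntl (-0.16) did not pass.

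Many genes that HIF is known to activate fell. Of 42 listed, 36 were measured: 19 were lower, against 7.1% of all genes, 0 higher (limma; 1 at an unadjusted p under 0.05) and 17 not past, and the median change was -0.40. Ak4 changed by -1.60 (SE 0.16), Fam162a by -1.35 (SE 0.13), the mitophagy gene Bnip3 by -1.13 (SE 0.12) and the oxidoreductase gene Ero1a by -0.63 (SE 0.066). Other listed targets did not fall, among them Adm (0.34, SE 0.14), P4ha2 (0.26, SE 0.16), Pfkfb3 (0.03) and Car9 (0.02), none past the threshold. Without Tie2-Cre mouse 4, Adm and P4ha2 passed as higher (limma adjusted p 0.031 and 0.017). Tie2-Cre mouse 4 read lowest of its group in 25 of the 36 and highest in 7, against 31.6% and 34.9% of all probe sets. Of the 19 lower targets it was lowest in 15 and highest in 3. It was lowest in Ak4 (8.31 against 8.83 and 8.91) and highest in Ero1a (12.04 against 11.93 and 11.97). No member is on this list. The core searched above was present before the start of 29 of the 31 measured targets with a promoter sequence, against 41.5% of all genes with one. These 31 were not split by their change, and whether HIF acted on them here was not tested.

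**Figure D4:**
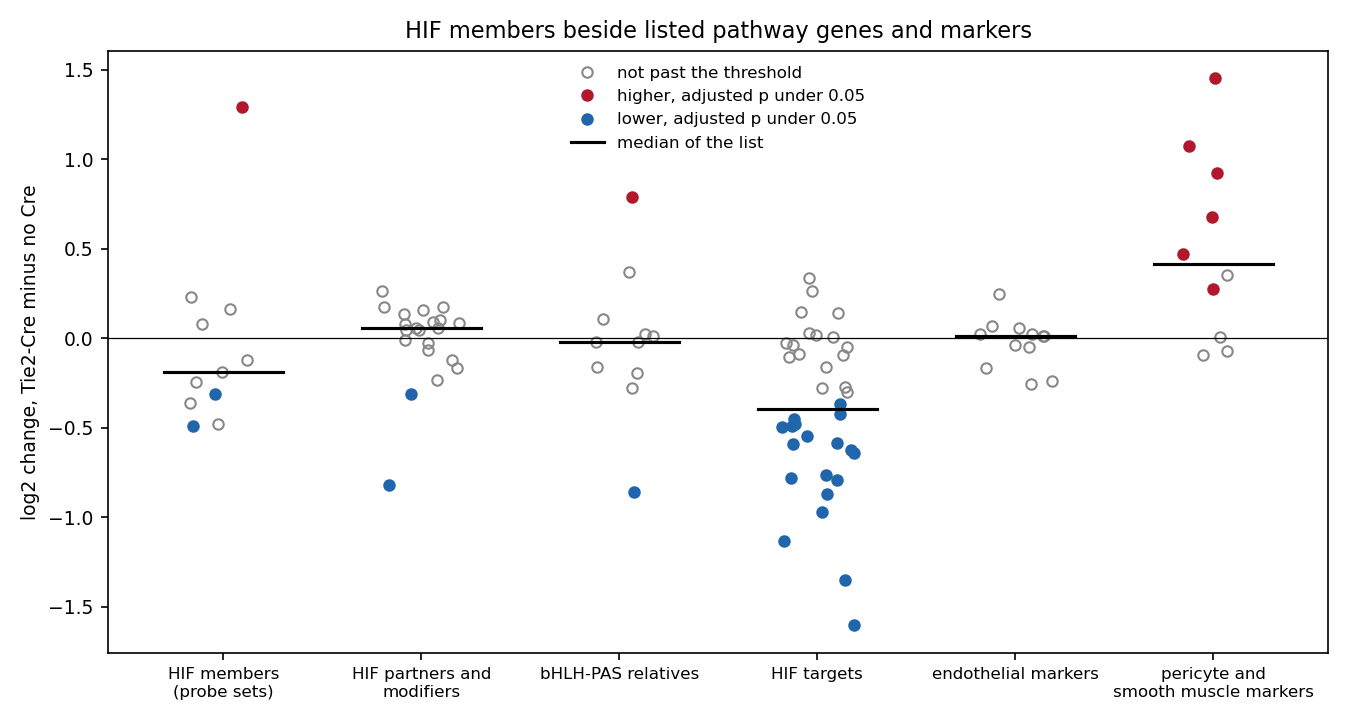
Log2 change, Tie2-Cre minus no Cre, of the 11 probe sets and of the genes of 5 lists (vertical axis), with red and blue filled points past the threshold, open points not past it and black lines at the medians. The HIF targets have a median of -0.40 and the pericyte and smooth muscle markers one of 0.41, while the partners, relatives and endothelial markers have medians between -0.02 and 0.05.

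Some markers of other cell types moved with the same groups, where 4.72% of all genes were higher and 7.1% lower. Of 10 pericyte and smooth muscle markers 6 were higher and 0 lower, Rgs5 by 1.45 (SE 0.064) and Notch3 by 1.08 (SE 0.10), and their summed level was 14.85 to 15.03 log2 with Tie2-Cre and 14.36 to 14.46 without Cre. Of 8 mesothelial markers 3 were lower, with sums of 10.36 to 10.56 and 11.70 to 11.86. Upk1b, 1 of these, changed by -3.50 to -3.17 with each mouse left out. Of 8 fibroblast markers 3 were higher (Dpt by 3.54, Pdgfra by 1.65 and Lum by 1.27) and 1 lower (Dcn, -0.76). The fibroblast sums were 14.09 to 14.31 with Tie2-Cre and 14.117 to 14.124 without Cre. Of 8 astrocyte, progenitor and glioma markers 2 were higher, with sums of 10.02 to 10.04 with Tie2-Cre and 9.63 to 9.76 without Cre. Nes, 1 of these, kept its call with each mouse left out (limma adjusted p 0.0054 to 0.0154). S100b was lost without Tie2-Cre mouse 3 (limma adjusted p 0.052). With each mouse left out, 4 to 6 pericyte and smooth muscle markers were higher and 2 to 3 mesothelial ones lower; Pdgfrb kept its call only without Tie2-Cre mouse 4, Krt19 only without no Cre mouse 7, and Myh11 only without Tie2-Cre mouse 3 or 4. Of 10 macrophage and microglia markers 1 was lower, with sums of 10.04 to 10.14 and 10.11 to 10.18, and for the 12 endothelial markers the sums were 9.88 to 9.98 and 9.95 to 9.99. In such bulk samples a change in the share of a cell type and a change of RNA per cell cannot be told apart. The part of these shifts in the values of Epas1, Hif1a and Egln1 was not tested.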

How the data were processed

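Biotin-labelled total RNA was read on the Affymetrix Mouse 2.0 ST platform. Per the labels, the deposited intensities are RMA values that the authors obtained with Expression Console, a program whose version the sources used here do not give; RMA as such corrects background and quantile normalizes. They ranged from 5.13 to 17822 on a linear scale, and log2 was taken before any test. Of 41345 probe sets, 23521 carried 1 gene symbol, 1814 several and 16010 none in the annotation, and the 23521 entered the fit. Groups were compared with lmFit and eBayes of limma 3.58.1 (R 4.3.3, two-sided, Benjamini-Hochberg adjustment); exact permutation used scipy 1.17.1. Genes of lists were read by their brightest probe set. Nothing says more of the samples than 1 mouse each. The SE and p-values of limma rest on the spread between these mice, which eBayes moderates toward a value taken over all probe sets. For probe sets with a small spread, such as Egln1 and Pfn1, they thus do not measure that spread alone. The number of arrays limits the precision. On simulated data of this size, 34 of 67 changes of 0.5 log2 (50.7%), 59 of 67 of 1 and 65 of 66 of 2 were recovered, with 8 false calls. Only these probe sets were changed there, with noise independent between probe sets, while 11.8% of all probe sets passed in the data. The recovered shares are therefore not those of the comparison made here.

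The members and lists were chosen with earlier results of these data known. Every member was named, with Pfn1, the markers Eng, Pecam1, Cdh5, Tek and Xist, up to 4 called genes per list and direction with the smallest p, and the 3 genes nearest in pattern to members that changed by at least 1 log2. Uty, Eif2s3y, Kdm5d, Elob, Cul2, Ep300, Crebbp, Cited2, Ahr, Clock, Arntl, Rgs5, Notch3, S100b, Pdgfrb, Krt19 and Myh11 were picked once their values had been seen. So were Dpt, Pdgfra, Lum, Dcn, Upk1b, Nes, Adm, P4ha2, Car9 and Pfkfb3. The alternatives run were all probe sets of the table, 1 probe set or the mean of probe sets per symbol, a minimum mean log2 of 5, the dimmest 33.3% left out, quantile normalization again, centred arrays, eBayes with trend and robust, array weights, and each mouse left out.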

Additional observations from a re-analysis of the deposited data

How the results depend on the processing

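No paired analysis was possible because the mouse numbers differ between the groups. Epas1 stayed higher and the dimmer Hif1a probe set stayed lower past the threshold under every alternative run on them. With each mouse left out, Hif3a ranged from -0.015 (without mouse 1 of Tie2-Cre or mouse 6 of no Cre) to 0.17. Leaving out the dimmest 33.3%, or eBayes with trend and robust, gave 2 higher members in place of 1 (Egln2 was added) and 1 higher partner in place of 0. Both also gave 3 lower partners in place of 2 and 2 higher bHLH-PAS relatives in place of 1. Leaving out the dimmest 33.3% gave 2 lower relatives in place of 1 as well. With 1 probe set per symbol, 1 member was lower in place of 2, because the dimmer Hif1a probe set was not in that fit. With all probe sets of the table, or with centred arrays, 1 partner was lower in place of 2. With each mouse left out, lower members numbered 1 to 2 (1 without no Cre mouse 7 or 10), higher members 1 throughout, lower partners 1 to 2, higher relatives 1 to 2 and higher HIF targets 0 to 2 (both upper values without Tie2-Cre mouse 4), lower HIF targets 14 to 18, all higher probe sets 685 to 959 (lowest without no Cre mouse 10) and all lower ones 924 to 1295 (lowest without no Cre mouse 7). The shift of Epas1 minus Hif1a ranged from 1.61 to 1.71 over its alternatives. The causes of the other shifts were not tested. Without detection calls, signal over background is unknown for the members near the array medians (Hif3a, the dimmer Hif1a probe set).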

Other observations

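Another probe set reads Hif1a together with the pseudogene S100a11-ps and was outside the comparison. It read 7.17, 7.36 and 7.33 log2 in Tie2-Cre mice 1, 3 and 4, and 7.35, 7.48 and 7.45 in no Cre mice 6, 7 and 10. The groups overlapped by the values of Tie2-Cre mouse 3 and no Cre mouse 6, and the change was -0.14 (SE 0.083, limma adjusted p 0.45 over all probe sets of the table), the same sign as in both probe sets of Hif1a alone.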
